A study of Mus musculus with 6 samples.

Results

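DNA replication genes, those of the machinery that copies the genome in S phase, were compared in lesional skin of psoriasis mice given Tregs by transfer. They form a list of 42 gene symbols, drawn up by function, and all 42 were among the 35434 symbols of the deposited table. The 6 RNA-seq libraries were of 3 skin samples labelled Lenv-Treg, from mice given regulatory T cells treated with lenvatinib (a receptor tyrosine kinase inhibitor), and 3 labelled Ctrl-Treg, from mice given control Tregs. Mice of both groups carried the disease and received transferred cells, and no group without transfer was analysed here. Neither the strain and age of the mice, nor the way the disease was induced, nor whether each sample was a different mouse is stated, and the p-values below therefore reflect variation among 6 samples that could be partly technical. Levels are in FPKM, a read count scaled by the length of the gene and the depth of the library, and can be set side by side between genes. Library depths solved from the FPKM steps were 39606294 to 40248462 reads in Lenv-Treg and 38704536 to 40247457 reads in Ctrl-Treg. Each gene of the list had at least 129 recovered reads in each library.

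Replication starts at origins marked by the origin recognition complex, where Cdc6 and Cdt1 load the Mcm2 to Mcm7 ring, and geminin (Gmnn) restrains Cdt1 so that an origin is licensed once per cycle. Cdc45 and the GINS complex turn the ring into the active helicase, primase and polymerase alpha lay down primers, and polymerases delta and epsilon extend them on the sliding clamp PCNA. Most of these genes are switched on at the passage from G1 to S by E2F transcription factors, and in skin they are used by dividing keratinocytes of the basal layer and of the hair follicle matrix. In bulk tissue, fewer dividing cells and less of these RNAs per cell cannot be told apart.

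Promoters are shown because 32 of the 42 members were lower in the comparison below. RefSeq promoter windows (build GRCm38.p6, 250 bases before to 50 after a gene's annotated start) matched 34 of the 42 members by symbol. They were searched on both strands for the E2F word TTCCCGC and its variants, namely TTCGCGC as well as TTGCCGC and also TTGGCGC. The last of these can overlap the reverse complement of the second, and can overlap a CCAAT box on the other strand. At least 1 E2F word stood in a window of 23 of the 34 members (67.6%), in 11 of 49 genes of a mitosis and kinetochore list (22.4%) and in 1978 of 10968 tested genes with a window (18%). The CHR words TTTGAA and TTCGAA, known from promoters of genes used later, in G2 and mitosis, stood in 8 members (23.5%), 38 genes of the mitosis list (77.6%) and 16.8% of tested genes. The CCAAT box, written CCAAT, stood in 22 members (64.7%), 73.5% of the mitosis list and 42.1% of tested genes. Genes with more than 1 window counted once, by any window, and a match is a description of the letters and not a measured binding site. E2F words stood in 19 of the 29 members with a window that fell in Lenv-Treg skin and in 4 of the 5 with a window that were not called.

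**Figure D1:**
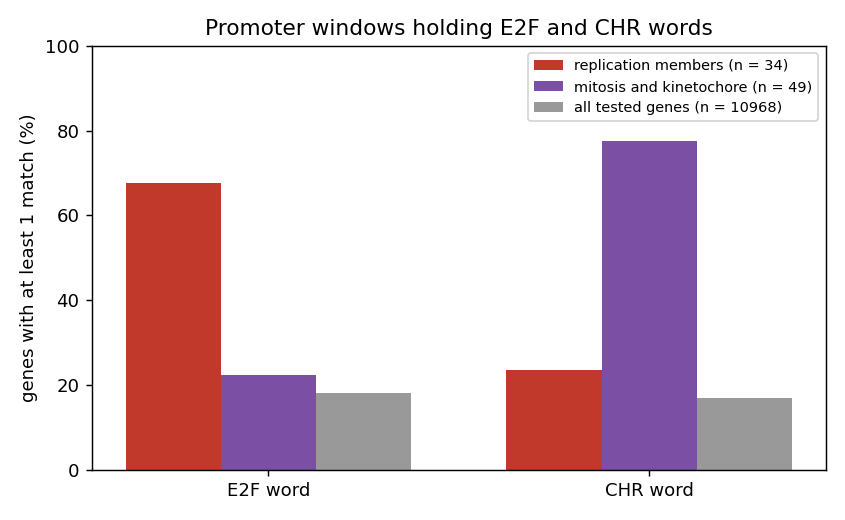
Share of genes (y axis, percent) with at least 1 E2F word or CHR word in a RefSeq promoter window, for replication members, mitosis and kinetochore genes and all tested genes (bars, with the number of genes that had a window). E2F words stood in 67.6% of the replication members and CHR words in 77.6% of the mitosis genes, against 18% and 16.8% of tested genes.

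The 4 members with an E2F word and the smallest p in the comparison of Lenv-Treg with Ctrl-Treg were Uhrf1 (chr17:56303087-56303386, plus strand), Mcm6 (chr1:128359656-128359955, minus strand), Pold1 (chr7:44548766-44549065, minus strand) and Dnmt1 (chr9:20952574-20952873, minus strand), all in GRCm38.p6 coordinates, whereas the FPKM values were made on GRCm39. Capitals mark E2F words on either strand, and each window reads 5′ to 3′ along its gene:
Uhrf1: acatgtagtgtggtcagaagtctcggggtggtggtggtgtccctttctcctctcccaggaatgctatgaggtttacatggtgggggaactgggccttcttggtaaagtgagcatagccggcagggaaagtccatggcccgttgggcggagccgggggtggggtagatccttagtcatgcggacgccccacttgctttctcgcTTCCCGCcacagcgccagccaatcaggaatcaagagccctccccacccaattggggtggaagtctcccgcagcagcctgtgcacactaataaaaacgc
Mcm6: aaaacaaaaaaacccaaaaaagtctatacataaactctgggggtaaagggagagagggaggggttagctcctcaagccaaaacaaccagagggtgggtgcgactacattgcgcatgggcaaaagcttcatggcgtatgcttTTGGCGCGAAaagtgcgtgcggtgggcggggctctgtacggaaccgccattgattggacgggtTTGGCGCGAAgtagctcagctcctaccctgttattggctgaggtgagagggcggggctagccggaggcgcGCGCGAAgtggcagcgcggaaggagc
Pold1: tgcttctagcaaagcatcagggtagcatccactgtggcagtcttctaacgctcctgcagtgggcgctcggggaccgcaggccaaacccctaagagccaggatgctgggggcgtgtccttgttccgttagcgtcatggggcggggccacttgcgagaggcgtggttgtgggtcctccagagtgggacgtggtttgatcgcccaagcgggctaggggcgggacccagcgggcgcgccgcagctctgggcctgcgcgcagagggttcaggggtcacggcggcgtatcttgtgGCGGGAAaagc
Dnmt1: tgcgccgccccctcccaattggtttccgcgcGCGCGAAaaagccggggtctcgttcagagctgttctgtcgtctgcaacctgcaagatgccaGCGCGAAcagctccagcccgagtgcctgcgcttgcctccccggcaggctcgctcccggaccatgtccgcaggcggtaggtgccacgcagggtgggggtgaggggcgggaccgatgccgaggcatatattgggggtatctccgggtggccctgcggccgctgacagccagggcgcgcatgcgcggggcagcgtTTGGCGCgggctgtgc
The Mcm6 window held 5 words at 3 places, 2 of them pairs of overlapping words. The Dnmt1 window shown held 3 words, and the Uhrf1 and Pold1 windows held 1 each. Dnmt1 had 3 windows and Uhrf1 had 2, and for each gene a window with the most E2F words was shown. Whether words in the Dnmt1 window lie in transcribed or coding sequence from another of its starts was not tested.

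Replication genes were lower in Lenv-Treg skin. Of the 42 members, each of which passed the filter on low values, 32 fell and 0 rose in limma at a Benjamini-Hochberg adjusted p under 0.05. That is 76.2% of the members, whereas of all 13945 tested genes 30.8% were called lower and 11.0% higher. No member was higher at an unadjusted p under 0.05 or with limma's voom on recovered reads, where 31 were lower (31.1% of all tested genes). Differences are given as Lenv-Treg minus Ctrl-Treg in log2(FPKM + 1), and their median was -0.57 over the members and -0.17 over all tested genes. All 3 Lenv-Treg libraries lay below all 3 Ctrl-Treg libraries for 33 members, an order found for 41.0% of tested genes, and the opposite order was seen for 0 members and 14.4% of tested genes. Among the 32 genes that fell, the mean FPKM in Lenv-Treg was between 20.6% and 64.9% lower than in Ctrl-Treg.

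The size of this shift depends on how the libraries are scaled to each other. After median-ratio scaling, which moves the median of all tested genes to 0.00, 21 members were lower and 0 higher, with a median of -0.38, while 17.3% of all tested genes were lower and 17.3% higher. After rescaling to TPM, which takes the median of all genes to -0.44, 40 members were lower and 0 higher, with a median of -0.88, while 57.2% of all tested genes were lower and 6.79% higher. The members' median lay below that of all tested genes under each of these scalings. Summed over the 42 members, the level was 418.3, 466.2 and 502.1 FPKM in Lenv-Treg libraries 1 to 3 and 641.8, 669.4 and 763.3 FPKM in Ctrl-Treg libraries 1 to 3, a ratio of means of 0.668 (0.776 after median-ratio scaling and 0.547 as TPM). The 2 groups of sums did not overlap. Within Lenv-Treg, replicate 1 was the lowest library for 36 of the 42 members, and for 26 as TPM.

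**Figure D2:**
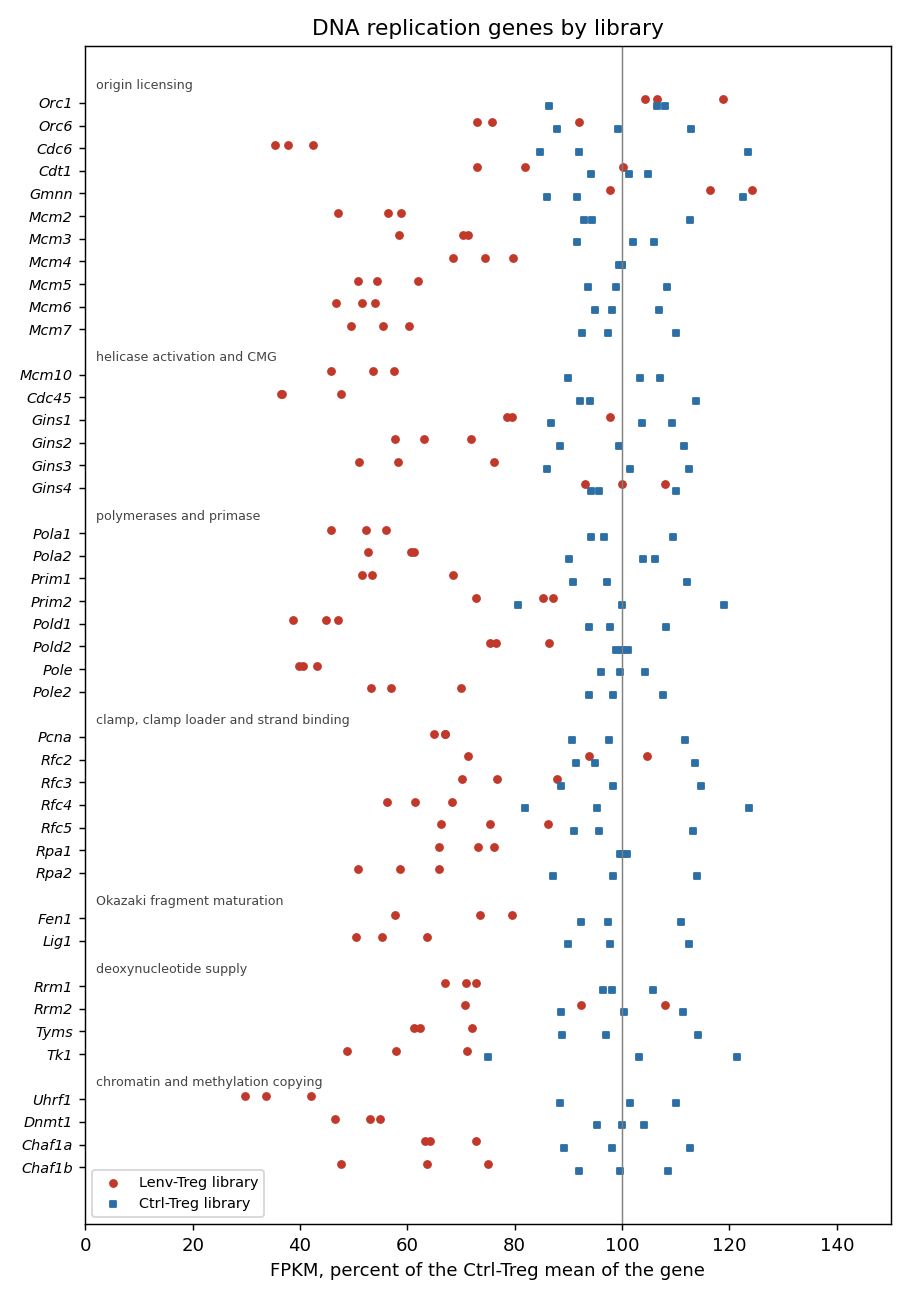
FPKM of each replication gene in each library (x axis, percent of the gene's Ctrl-Treg mean), with Lenv-Treg libraries as circles and Ctrl-Treg libraries as squares, grouped by role down the page. For 33 of the 42 genes all Lenv-Treg libraries lie left of all Ctrl-Treg libraries.

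**Figure D3:**
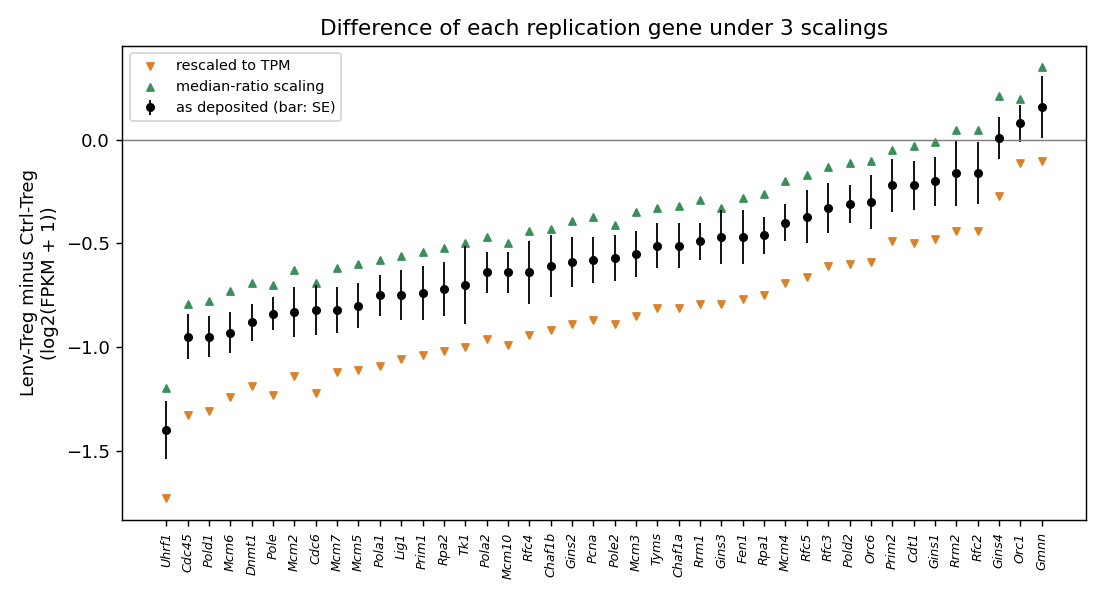
Difference of each replication gene, Lenv-Treg minus Ctrl-Treg (y axis, log2(FPKM + 1)), as deposited with its standard error (black), rescaled to TPM (orange) and after median-ratio scaling (green), ordered from the most negative. The member medians are -0.57, -0.88 and -0.38.

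Of the 11 origin licensing genes, 7 fell, among them all 6 subunits of the Mcm2 to Mcm7 ring. Mcm6 had 12.8, 14.1 and 14.8 FPKM in Lenv-Treg libraries, against 26.9, 26.0 and 29.3 FPKM in Ctrl-Treg libraries, groups far apart relative to their spread (difference -0.93, SE 0.10, adjusted p = 0.00039, limma). Mcm7, the member of this role with the highest mean, had 13.3, 14.9 and 16.2 FPKM in Lenv-Treg and 26.2, 24.9 and 29.6 FPKM in Ctrl-Treg (difference -0.82, adjusted p = 0.00116). Mcm2 (difference -0.83) and Mcm5 (-0.80) fell by about as much, and Mcm3 (-0.55) and Mcm4 (-0.40) by less. The calls of Mcm3 and Mcm4 ended after median-ratio scaling (adjusted p = 0.0575 and 0.145). The ring takes its 6 subunits in equal number, and the FPKM of the highest subunit was 1.40 to 1.44 times that of the lowest within a Lenv-Treg library, where Mcm2 was lowest, and 1.54 to 1.77 times within a Ctrl-Treg library, where Mcm4 was lowest.

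Of the 5 other licensing genes, 1 passed the test. Cdc6, the ATPase that loads the ring, averaged 0.956 ± 0.0892 FPKM in Lenv-Treg and 2.48 ± 0.514 FPKM in Ctrl-Treg (SD, n = 3 each), a ratio of 0.386 (difference -0.82, adjusted p = 0.00181, limma). Its partner Cdt1 did not pass, at 6.87, 7.70 and 9.43 FPKM in Lenv-Treg and 8.86, 9.86 and 9.53 FPKM in Ctrl-Treg (adjusted p = 0.181, limma), nor did the origin recognition subunit Orc6 (difference -0.30, adjusted p = 0.0931). Orc1, another subunit of that complex, had 1.48, 1.45 and 1.65 FPKM in Lenv-Treg and 1.48, 1.20 and 1.50 FPKM in Ctrl-Treg, and these groups overlapped (adjusted p = 0.518, limma). Gmnn, the inhibitor of Cdt1, had 7.21, 8.59 and 9.16 FPKM in Lenv-Treg and 6.35, 6.76 and 9.04 FPKM in Ctrl-Treg, the most positive difference of the 42 members (0.16, SE 0.15, adjusted p = 0.399, limma). As TPM, where 57.2% of all tested genes were lower, Cdt1 (-0.50, adjusted p = 0.00782, limma) and Orc6 (-0.59, adjusted p = 0.00348) were called lower. On that scale the signs for Orc1 and Gmnn turned negative (-0.11 and -0.10). Orc1 passed as higher after quantile normalization (adjusted p = 0.0313).

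Of the 6 genes that activate the helicase, 4 fell. Cdc45, which joins the ring and GINS in the active helicase, had 1.50, 1.51 and 1.96 FPKM in Lenv-Treg and 3.80, 3.87 and 4.69 FPKM in Ctrl-Treg, with every Lenv-Treg library below every Ctrl-Treg library (difference -0.95, SE 0.11, adjusted p = 0.000807). Mcm10, which helps to activate the loaded helicase, averaged 1.61 FPKM in Lenv-Treg and 3.08 FPKM in Ctrl-Treg (difference -0.64). Of the 4 subunits of GINS, 2 passed the test on the deposited scale and all 4 were called lower as TPM. On the TPM scale, however, 57.2% of all tested genes were called lower and their median was -0.44. Gins2 (difference -0.59) and Gins3 (-0.47) fell. The call of Gins3 ended without Ctrl-Treg replicate 2 or 3 or Lenv-Treg replicate 1 or 2 (adjusted p up to 0.0721), as it did after median-ratio scaling. Gins1 had 5.16, 5.22 and 6.42 FPKM in Lenv-Treg and 5.70, 6.81 and 7.18 FPKM in Ctrl-Treg, which overlapped (difference -0.20, adjusted p = 0.223; as TPM -0.48, adjusted p = 0.0113). Gins4 had 17.6, 18.9 and 20.4 FPKM in Lenv-Treg and 17.8, 18.1 and 20.8 FPKM in Ctrl-Treg, nearly the same range (difference 0.01, SE 0.10, adjusted p = 0.963, limma). As TPM Gins4 was called lower (-0.27, adjusted p = 0.0297, limma), though by less than the median of all tested genes on that scale.

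Of the 8 polymerase and primase genes, 7 fell. Pole, the catalytic subunit of polymerase epsilon, had 1.24, 1.22 and 1.32 FPKM in Lenv-Treg and 3.05, 2.94 and 3.19 FPKM in Ctrl-Treg, from 351 to 372 reads a library in Lenv-Treg and 821 to 881 reads in Ctrl-Treg (difference -0.84, SE 0.08, adjusted p = 0.000337). Pold1, the catalytic subunit of polymerase delta, had 2.28, 2.64 and 2.77 FPKM in Lenv-Treg and 5.53, 5.76 and 6.37 FPKM in Ctrl-Treg (difference -0.95, SE 0.10, adjusted p = 0.000427). In both genes the Lenv-Treg libraries stood well under the Ctrl-Treg libraries, with ratios of means of 0.412 and 0.435. Pold2, an accessory subunit of polymerase delta, had 13.8, 14.0 and 15.8 FPKM in Lenv-Treg and 18.1, 18.3 and 18.5 FPKM in Ctrl-Treg (difference -0.31, adjusted p = 0.0243). That call ended without any 1 of 5 libraries, all but Lenv-Treg replicate 3 (adjusted p up to 0.0882), and median-ratio scaling ended it too (adjusted p = 0.353). Pole2 (difference -0.57), Pola1 (-0.75), Pola2 (-0.64) and the small primase subunit Prim1 (-0.74) fell, and the large primase subunit Prim2 did not pass (-0.22, adjusted p = 0.218).

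A ratio of genes within a library is not changed by scaling between libraries. Pold1 stood to Pold2 as 0.165, 0.188 and 0.176 in Lenv-Treg and as 0.306, 0.314 and 0.345 in Ctrl-Treg, so the catalytic subunit was lower relative to the accessory one in every Lenv-Treg library. Pole stood to Pole2 as 0.489 ± 0.0527 in Lenv-Treg and 0.706 ± 0.036 in Ctrl-Treg (SD, n = 3 each), with no overlap. The ratio of Pola1 to Pola2 overlapped between groups, at 0.740 ± 0.102 in Lenv-Treg and 0.837 ± 0.0722 in Ctrl-Treg. Gins4 stood to Gins2 as 1.96, 1.92 and 1.82 in Lenv-Treg and 1.15, 1.30 and 1.20 in Ctrl-Treg, and Mcm4 to Mcm6 as 0.902 ± 0.0557 in Lenv-Treg and 0.614 ± 0.0403 in Ctrl-Treg. Gmnn stood to Cdt1 as 1.05, 1.12 and 0.972 in Lenv-Treg and 0.717, 0.686 and 0.948 in Ctrl-Treg. In all, 15 such ratios were computed, for pairs chosen after their values were seen. For 13 of them the groups did not overlap. Because the pairs were chosen in that way, this count is a description and not a test. The share of other gene pairs without overlap was not computed.

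Of the 7 genes of the clamp, its loader and the single-strand binding protein, 5 fell. Pcna, the sliding clamp and the member with the highest level, had 78.8, 81.3 and 81.2 FPKM in Lenv-Treg and 110.0, 118.2 and 135.4 FPKM in Ctrl-Treg, the Lenv-Treg libraries lying close together below the others (difference -0.58, SE 0.11, adjusted p = 0.0053). Rpa2, a subunit of the single-strand binding protein RPA, had 9.10, 10.5 and 11.8 FPKM in Lenv-Treg and 15.6, 17.6 and 20.4 FPKM in Ctrl-Treg (difference -0.72, adjusted p = 0.00449), and Rpa1 fell too (-0.46). The loader subunits Rfc4 (-0.64) and Rfc5 (-0.37, adjusted p = 0.0479) fell, and Rfc3 did not pass (-0.33, adjusted p = 0.0704). The call of Rfc5 ended without any 1 of 5 libraries, all but Lenv-Treg replicate 3 (adjusted p up to 0.137), and in voom (adjusted p = 0.0503). Rfc2, also of the loader, had 18.4, 24.2 and 27.0 FPKM in Lenv-Treg and 24.5, 23.6 and 29.3 FPKM in Ctrl-Treg, with overlap (difference -0.16, adjusted p = 0.436, 0.05 after median-ratio scaling). The calls of Rfc4, Rfc5 and Rpa1 also ended after median-ratio scaling (adjusted p = 0.0614, 0.329 and 0.0722).

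Both genes of Okazaki fragment maturation fell. Lig1, the ligase that seals the fragments, had 6.51, 7.12 and 8.21 FPKM in Lenv-Treg and 11.6, 12.6 and 14.5 FPKM in Ctrl-Treg, which did not overlap (difference -0.75, SE 0.12, adjusted p = 0.00244). Fen1, the flap nuclease, fell by 0.47 on the log2 scale, a call that ended without Ctrl-Treg replicate 2 or 3 or Lenv-Treg replicate 2 (adjusted p up to 0.0726) and under median-ratio scaling (adjusted p = 0.15). Of the 4 genes of deoxynucleotide supply, 3 fell. Rrm1, the large subunit of ribonucleotide reductase, had 21.2, 23.0 and 22.4 FPKM in Lenv-Treg and 31.0, 30.5 and 33.4 FPKM in Ctrl-Treg (difference -0.49, adjusted p = 0.00384). Its small subunit Rrm2 had 19.3, 25.2 and 29.5 FPKM in Lenv-Treg and 24.2, 27.4 and 30.4 FPKM in Ctrl-Treg, which overlapped (difference -0.16, SE 0.16, adjusted p = 0.457, 0.05 after median-ratio scaling). Thymidylate synthase Tyms (-0.51) and thymidine kinase Tk1 (-0.70) fell. The call of Tk1 ended without Ctrl-Treg replicate 2 or 3 or Lenv-Treg replicate 1 or 2 (adjusted p up to 0.0702), and those of Tyms and Tk1 ended after median-ratio scaling (adjusted p = 0.0511 and 0.0821).

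All 4 genes that copy chromatin and DNA methylation behind the fork fell. Uhrf1, which reads hemimethylated DNA and recruits the maintenance methyltransferase, had 6.22, 7.04 and 8.77 FPKM in Lenv-Treg and 18.5, 21.2 and 23.0 FPKM in Ctrl-Treg, the most negative difference of the 42 members (-1.40, SE 0.14, adjusted p = 0.000329). Its mean in Lenv-Treg was 64.9% lower than in Ctrl-Treg, from 883 to 1233 reads a library in Lenv-Treg and 2649 to 3166 reads in Ctrl-Treg. Dnmt1, the maintenance methyltransferase, had 9.08, 9.40 and 7.96 FPKM in Lenv-Treg and 17.1, 16.3 and 17.8 FPKM in Ctrl-Treg (difference -0.88, SE 0.09, adjusted p = 0.000465). Relative to Pcna, which recruits Dnmt1 to the fork, Uhrf1 stood at 0.0912 ± 0.0151 in Lenv-Treg and 0.173 ± 0.0059 in Ctrl-Treg, and Dnmt1 at 0.110 ± 0.010 in Lenv-Treg and 0.142 ± 0.0123 in Ctrl-Treg (SD, n = 3 each). Chaf1a (-0.51) and Chaf1b (-0.61), subunits of the histone chaperone CAF-1, fell, and the call of Chaf1b ended after median-ratio scaling (adjusted p = 0.0723).

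Genes that work beside the members were read from lists, described by counts and medians. For comparison, 30.8% of all tested genes were called lower and 11.0% higher. The share of all tested genes called lower was 17.3% after median-ratio scaling and 57.2% as TPM. Of 29 tested genes among 31 other replication factors, 12 fell (41.4%) and 1 rose (median -0.28), 11 and 0 in voom. The clamp loader subunit Rfc1 (-0.50) and the clamp unloader Atad5 (-0.52) fell, as did Pole3 (-0.28, adjusted p = 0.049; not without any 1 library but Ctrl-Treg replicate 1, adjusted p up to 0.146), while Rpa3 had 27.7 ± 3.46 FPKM in Lenv-Treg and 34.5 ± 6.63 FPKM in Ctrl-Treg and did not pass. The count for this list was 6 without Ctrl-Treg replicate 2 or Lenv-Treg replicate 2, 7 without Ctrl-Treg replicate 3, 6 after median-ratio scaling and 25 as TPM. Pold4, an accessory polymerase delta subunit and the gene of this list that rose, had 5.89 ± 0.470 FPKM in Lenv-Treg and 4.62 ± 0.0147 FPKM in Ctrl-Treg (adjusted p = 0.0368, limma), and was not called without any 1 of the 6 libraries (adjusted p up to 0.101) or in voom. Of 23 tested fork protection and checkpoint genes, 16 fell (69.6%) and 0 rose (median -0.34). The count lower was 10 without Ctrl-Treg replicate 3 or Lenv-Treg replicate 2, and 9 after median-ratio scaling. In voom 0 were higher, and 0 at an unadjusted p under 0.05. Claspin (Clspn), an adaptor of the checkpoint kinase Chk1, had 1.26 ± 0.0286 FPKM in Lenv-Treg and 3.34 ± 0.293 FPKM in Ctrl-Treg (difference -0.94), and Brca1 (-0.84) fell as well. Tipin fell by 0.48, a call that ended without Ctrl-Treg replicate 2 or 3 or Lenv-Treg replicate 1 or 2 (adjusted p up to 0.0959).

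Regulators of the passage from G1 to S gave the widest spread. Of 38 tested, 18 fell (47.4%) and 1 rose (median -0.37, and 13 and 5 after median-ratio scaling). Mycn, a MYC family factor, had 0.173, 0.268 and 0.0778 FPKM in Lenv-Treg and 7.50, 10.8 and 9.79 FPKM in Ctrl-Treg (difference -3.13, SE 0.14, adjusted p = 2.39e-05). Mycn passed the filter on low values only through Ctrl-Treg, where it is high, and its difference depends on the pseudocount (-5.16 with a pseudocount of 0.1, and -5.86 in voom). Myc did not pass (0.34, adjusted p = 0.0549, limma) and was called higher after median-ratio scaling (0.54). Ccnd2, a D-type cyclin, averaged 5.25 ± 0.587 FPKM in Lenv-Treg and 39.4 ± 5.23 FPKM in Ctrl-Treg (difference -2.69, limma adjusted p = 2.73e-05), and its kinase partner Cdk4 fell by 0.63. Cdkn1a, which encodes the cyclin-dependent kinase inhibitor p21, rose to 117.6, 126.5 and 128.1 FPKM in Lenv-Treg, against 83.1, 84.7 and 100.3 FPKM in Ctrl-Treg (difference 0.47, adjusted p = 0.0134). Cdkn1a was not called higher without Lenv-Treg replicate 2 (adjusted p = 0.0533) or as TPM, where 0 of the 38 rose. The E2F genes and the cyclin gene Ccnd1 were singled out after their values were seen. Of 8 E2F genes tested, 4 fell, while 30.8% of all tested genes were called lower. A count among 8 genes picked in this way is a description and no result about the family. E2f1 had 3.55 ± 0.317 FPKM in Lenv-Treg and 7.03 ± 0.323 FPKM in Ctrl-Treg (difference -0.82, limma adjusted p = 0.000635), and E2f2 fell by 1.49. The call of E2f3 (-0.30) ended without any 1 library but Ctrl-Treg replicate 1 (adjusted p up to 0.081), and that of E2f6 (-0.48) without any 1 library but Ctrl-Treg replicate 3 (adjusted p up to 0.143). Both calls also ended after median-ratio scaling (limma adjusted p = 0.0731 for E2f3 and 0.178 for E2f6). E2f3, at 0.450 to 0.483 FPKM in Lenv-Treg, also passed the filter on low values only through Ctrl-Treg, where it is higher. E2f4 (0.19), E2f5 (-0.03), E2f7 (0.20) and E2f8 (0.06) did not pass, and E2f4 was called higher after median-ratio scaling (adjusted p = 0.0203). Ccnd1 fell by 1.72.

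Mitosis and kinetochore genes, the list nearest in use, were called lower in nearly the same share as the members. Of 58 tested, 44 fell and 0 rose (75.9%, median -0.53), with 0 higher in voom and 0 at an unadjusted p under 0.05, and 31 were lower after median-ratio scaling. Mki67, the proliferation marker Ki-67, averaged 8.65 ± 1.19 FPKM in Lenv-Treg and 21.2 ± 1.71 FPKM in Ctrl-Treg (SD, n = 3 each; difference -1.21, limma adjusted p = 0.000345), and Foxm1, a factor of the G2 and mitosis program, fell by 1.07. Ube2c and Bub3, the list's most abundant genes, did not pass (adjusted p = 0.483 and 0.11). The summed FPKM of the replication members was 0.923, 1.03 and 1.00 times that of the mitosis list in Lenv-Treg and 1.11, 0.976 and 1.03 times in Ctrl-Treg, and these ratios overlapped. Of 21 genes of histone supply and chromatin, 17 fell and 0 rose (median -0.45; 9 without Ctrl-Treg replicate 2 or Lenv-Treg replicate 2, 10 without Ctrl-Treg replicate 3, 7 after median-ratio scaling), with 0 higher in voom and 0 at an unadjusted p under 0.05. They included Ezh2 (-0.86) and Supt16 (-0.61), and Hmgn2 (-0.40), whose call ended without Ctrl-Treg replicate 2 or 3 or Lenv-Treg replicate 1 or 2 (adjusted p up to 0.109), while H2az1 did not pass (-0.03, adjusted p = 0.891).

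**Figure D4:**
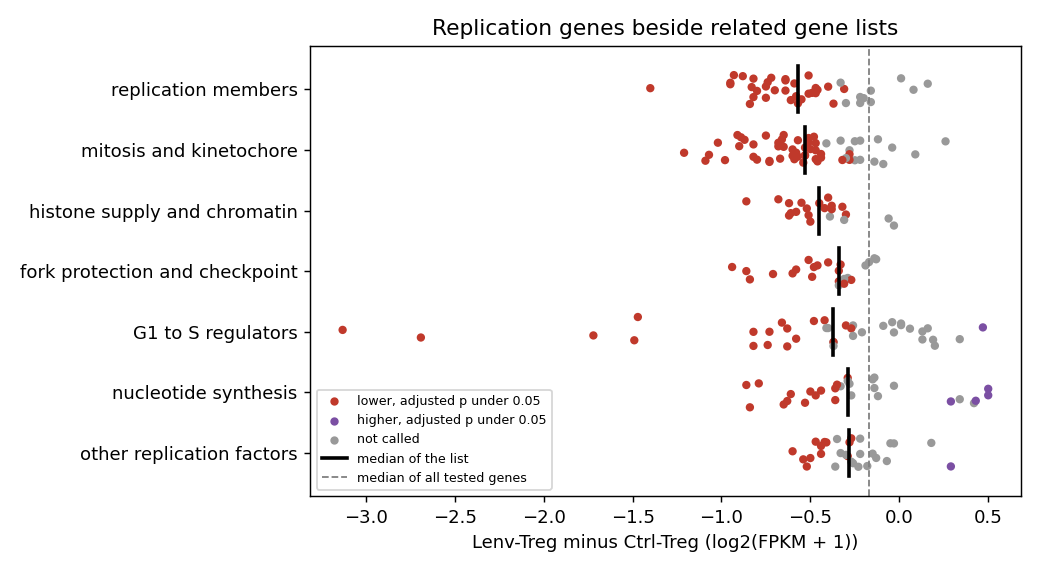
Difference of each tested gene, Lenv-Treg minus Ctrl-Treg (x axis, log2(FPKM + 1)), in the replication members and 6 related lists, coloured by call. Black bars are list medians (-0.57 for the members, -0.53 for mitosis and kinetochore), and the dashed line is the median of all tested genes (-0.17).

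Markers of the cell types in skin moved in the same libraries. Epidermal markers were plentiful in every library, as the tissue label says, and the Treg factor Foxp3 had 0.268 ± 0.0216 FPKM in Lenv-Treg and 0.193 ± 0.0812 FPKM in Ctrl-Treg (SD, n = 3 each), below the filter. Of 16 hair matrix, inner root sheath and shaft markers, 15 fell and 0 rose, with 0 higher in voom and 0 at an unadjusted p under 0.05. Their summed level was 20.5 to 35.4 FPKM in Lenv-Treg and 1505 to 3232 FPKM in Ctrl-Treg. Most of the Ctrl-Treg sum was of inner root sheath genes, such as Krt71 and Krt25 (Ctrl-Treg means 830.5 and 610.7 FPKM). Matrix genes such as Msx1 and Shh added little to it (Ctrl-Treg means 13.3 and 9.32 FPKM). Within Ctrl-Treg, the sum of the hair markers was 1505, 3209 and 3232 FPKM in replicates 1 to 3 while the replication members summed to 641.8, 669.4 and 763.3 FPKM. The hair sum does not measure dividing matrix cells, and its relation to the level of the members was not tested. Lef1, Hoxc13, Shh, Dsg4 and Krt85 of the hair list, at 0 to 0.412 FPKM in Lenv-Treg, passed the filter only through Ctrl-Treg. Of 10 basal keratinocyte markers, 6 rose and 2 fell, with summed levels of 7141 to 7339 FPKM in Lenv-Treg and 2257 to 2652 FPKM in Ctrl-Treg, and of 9 tested markers of activated keratinocytes 8 rose, from a list that shares S100a8 and S100a9 with the neutrophil list (sums of 46080 to 62953 FPKM in Lenv-Treg and 542.8 to 983.3 FPKM in Ctrl-Treg, or 8213 to 11841 FPKM in Lenv-Treg and 498.9 to 802.1 FPKM in Ctrl-Treg without those 2 genes). Defb4 of the activated list, at 0 to 0.338 FPKM in Ctrl-Treg, passed the filter only through Lenv-Treg.

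Immune and stromal marker lists differed in how many members passed. Of 10 tested neutrophil markers, 9 rose (sums of 38096 to 53797 FPKM in Lenv-Treg and 55.3 to 195.6 FPKM in Ctrl-Treg). Nearly all of that sum was S100a8 and S100a9, and the other neutrophil markers summed to 228.7 to 449.0 FPKM in Lenv-Treg and 9.06 to 14.4 FPKM in Ctrl-Treg. Ly6g, Ngp and Mmp8, at 0.0220 to 0.446 FPKM in Ctrl-Treg, passed the filter on low values only through Lenv-Treg. Mpo, Elane and Ltf were low in both groups and were not tested, so the count of 9 depends partly on the filter. Of 10 macrophage markers, 3 rose and 1 fell (3649 to 4166 FPKM in Lenv-Treg and 2390 to 3052 FPKM in Ctrl-Treg). Of 8 fibroblast markers, 4 fell (2598 to 3699 FPKM in Lenv-Treg and 4828 to 6062 FPKM in Ctrl-Treg), and of 8 melanocyte markers 7 fell (12.6 to 16.0 FPKM in Lenv-Treg and 120.3 to 191.0 FPKM in Ctrl-Treg). Tyr and Slc45a2 of the melanocyte list, at 0 to 0.0531 FPKM in Lenv-Treg, passed the filter only through Ctrl-Treg. Of 7 tested T cell markers, 1 fell, the kinase gene Lck (1.13 ± 0.237 FPKM in Lenv-Treg and 2.36 ± 0.185 FPKM in Ctrl-Treg, limma adjusted p = 0.00305), and the list summed to 11.3 to 17.5 FPKM in Lenv-Treg and 15.2 to 22.6 FPKM in Ctrl-Treg. Of 10 suprabasal keratinocyte markers 4 fell and 1 rose, of 7 sebaceous gland markers 4 fell, of 6 adipocyte markers 4 fell, of 7 endothelial markers 1 rose, and of 8 skeletal muscle markers none passed. Over all tested genes, 30.8% were called lower and 11.0% higher. Several of the marker counts moved with scaling. After median-ratio scaling, 7 macrophage markers rose and 0 fell, 3 endothelial markers rose, 2 suprabasal markers and 1 basal marker fell. As TPM, 4 basal keratinocyte markers rose and 3 fell, 0 endothelial markers rose and 3 skeletal muscle markers fell. Of all tested genes, 17.3% were lower and 17.3% higher after median-ratio scaling, and 57.2% and 6.79% as TPM. The part of these cell types in the lower level of replication genes was not tested.

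**Figure D5:**
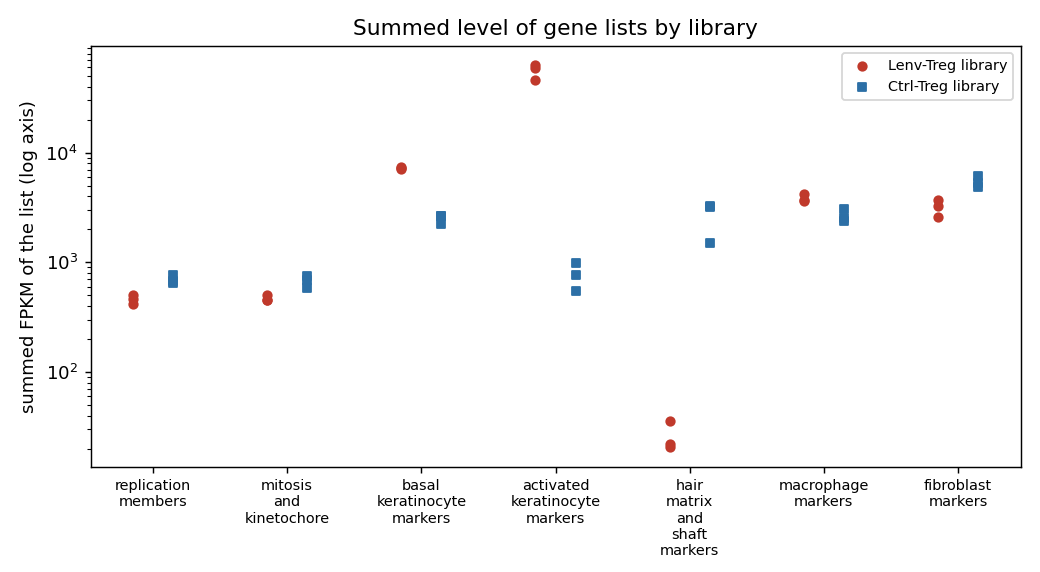
Summed FPKM (y axis, log scale) of the replication members, the mitosis list and 5 cell type marker lists in each library, with Lenv-Treg circles left of Ctrl-Treg squares. The members' sums span 418.3 to 502.1 FPKM in Lenv-Treg and 641.8 to 763.3 FPKM in Ctrl-Treg. The hair markers, which include inner root sheath genes, span 20.5 to 35.4 FPKM in Lenv-Treg and 1505 to 3232 FPKM in Ctrl-Treg.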

How the data were processed

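The authors deposited 1 table of gene FPKM for 6 libraries, with GRCm39 as the build, per the submitters' processing notes. Which aligner, counter, annotation, strand setting and filters were used is not given in the sources used here, so reads of overlapping or antisense genes cannot be told apart. Libraries were grouped by their treatment label. Per gene, low FPKM values were whole multiples of a step, from which library depths of 38704536 to 40248462 reads were solved and reads per gene recovered. Recovered reads were whole for 13945 of 13945 tested genes within 0.005 reads plus 1.5e-07 per read. Over tested genes they came to 99.27% to 99.46% of the depth. At this depth 1 read on 1 kb was worth 0.0248 to 0.0258 FPKM.

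Genes with FPKM of at least 0.5 in 3 libraries were tested with limma 3.58.1 in R 4.3.3 (trend, two-sided, Benjamini-Hochberg over 13945 genes, threshold 0.05) on log2(FPKM + 1), which understates the change of low genes. The procedure was also run on simulated data with few changed genes and no overall shift. Such data cannot show how it behaves under a broad shift like the one here. Each pair of libraries differed by more than sampling noise. Members and lists were chosen with earlier results of these data known. Values in every library are given for the member of each role with the smallest p, that with the highest mean, and the 6 members with the most positive and the 6 with the most negative difference. Of each related list, the genes with the 2 highest means and the 2 other smallest p are named, except for some genes not reported here. Alternatives were the pseudocount, filter, scaling, variance model, sample weights, voom on reads, a replicate block and leaving out each library.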

Additional observations from a re-analysis of the deposited data

How the results depend on the processing

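Of the 32 members that fell, 19 kept their call under all 18 alternatives, and 27 kept it without any 1 library. Leaving out 1 library gave counts of 27 to 32 members lower and 0 higher, medians of -0.63 to -0.50 and sum ratios of 0.64 to 0.705. Scaling moved the values most. Median-ratio scaling gave 21 members lower, a median of -0.38 and a sum ratio of 0.776. Quantile normalization gave a median of -0.42 and 1 member higher (Orc1). TPM gave a median of -0.88 and a sum ratio of 0.547. Signs turned for members that were not called on the deposited scale. As TPM the difference of Orc1 was -0.113, the difference of Gmnn -0.1 and the difference of Gins4 -0.274. After quantile normalization the difference of Gins1 was 0.0123 and the difference of Prim2 0.0259, and after median-ratio scaling the difference of Rfc2 was 0.0461 and the difference of Rrm2 0.0462. Without 1 library the difference of Gins4 lay between -0.0437 and 0.0743 and the difference of Rrm2 between -0.292 and 0.000124.

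List counts and medians moved as follows, in the order median-ratio scaling, TPM and the range without 1 library. Other replication factors gave 6, 25 and 6 to 13 genes lower and medians of -0.13, -0.57 and -0.34 to -0.22. Fork protection genes gave 9 genes under median-ratio scaling and 10 to 16 without 1 library, with medians of -0.21, -0.64 and -0.42 to -0.36. G1 to S regulators gave medians of -0.21 and -0.66. Nucleotide synthesis genes gave 7 genes and 8 to 12 without 1 library, with medians of -0.09 and -0.58. Histone supply gave 7 genes and 9 to 17 without 1 library, with medians of -0.27 and -0.74. Mitosis genes gave medians of -0.36 and -0.84. The 5 tested replication-dependent histones gave 0, 3 and 0 to 1 genes and medians of 0.02, -0.48 and -0.29 to -0.12. The cause of these moves was not tested.

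With a replicate block, 34 members were lower and 0 higher: the difference of Orc6 and the difference of Rfc3 also passed (adjusted p = 0.0375 and 0.0404), and no member lost its call. Deviations of same-numbered libraries correlated at 0.196, -0.0109 and 0.328. Lenv-Treg replicates 1 and 3 correlated best with their own number, and Lenv-Treg replicate 2 did not (0.0518 with Ctrl-Treg replicate 1). With 3 libraries per group these correlations cannot decide whether the libraries are paired, and the main test assumed no pairs. Every member had at least 129 reads in each library.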

Other observations

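Of 29 tested nucleotide synthesis genes, 14 fell and 4 rose (median -0.29; 8 fell without Ctrl-Treg replicate 3 or Lenv-Treg replicate 2, 9 without Ctrl-Treg replicate 2). Cad, which starts pyrimidine synthesis, had 4.66 ± 0.451 FPKM in Lenv-Treg and 9.24 ± 0.390 FPKM in Ctrl-Treg (difference -0.86, limma adjusted p = 0.000582), and Dck, a salvage kinase of deoxynucleosides, fell by 0.84. Genes that rose included the mitochondrial serine hydroxymethyltransferase gene Shmt2 (difference 0.50), the kinase gene Cmpk1 (0.50) and Impdh1 (0.29), chosen for naming after their values were seen. Shmt1, the cytosolic counterpart of Shmt2, fell by 0.61, and Impdh2 did not pass (-0.12). No gene of the list was called higher as TPM. Without 1 library, Impdh1 was not called in any of 6 cases (adjusted p up to 0.121), and the count of higher genes was 2 without Ctrl-Treg replicate 1 or 2 or Lenv-Treg replicate 2 or 3. Nme1 and Nme2, the most abundant of the list, did not pass (adjusted p = 0.16 and 0.207).

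Of 19 replication-dependent histone genes in the table, 5 passed the filter, 1 of them higher and 1 lower (median -0.19), with 4 of the 5 differences negative and 3 genes called lower as TPM. H2bc4 had 49.1 ± 3.89 FPKM in Lenv-Treg and 56.2 ± 5.71 FPKM in Ctrl-Treg and did not pass (limma adjusted p = 0.211), nor did H1f2 (adjusted p = 0.64). H2ac8 rose to 1.12, 1.20 and 1.45 FPKM in Lenv-Treg, against 0.0445, 0.503 and 0.602 FPKM in Ctrl-Treg, a difference of 0.73 that came to 1.78 with a pseudocount of 0.1 and 2.19 in voom. H2ac18 fell by 0.30, and of the cases without 1 library it was called only without Lenv-Treg replicate 3 (adjusted p up to 0.137). The call of H2ac18 also ended in voom (adjusted p = 0.232) and after median-ratio scaling (limma adjusted p = 0.25). These transcripts mostly lack a poly(A) tail and near-identical copies can share reads, so each gene's value is uncertain.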
